A study of Mus musculus with 21 samples.

Results

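The genes described here are the chemokines and chemokine receptors of the CC and CXC classes in mouse hippocampus: 52 of the 24411 genes listed in both deposited tables, taken by their symbols alone (Ccl, Cxcl, Ccr or Cxcr, a number and at most 1 letter). They comprise 37 ligands and 15 receptors. RNA was measured by poly(A) RNA sequencing in the hippocampus of 1 hemisphere of perfused wild-type male mice, in 21 libraries from 2 separate experiments; nothing in the labels says whether a library is 1 animal. In the transfer experiment, recipients of the B6.SJL-Ptprca Pepcb/BoyJ strain, 4 months old, were given a CD8a antibody (clone 2.43) on days -11 and -7, which was meant to deplete resident CD8+ T cells. Purified CD8+ T cells were then injected into the tail vein, from suspensions given as 300000 (first injection) and 3000000 (second injection). These cells came from spleen and blood of C57BL/6J donors aged 22 to 28 months (aged T, n = 5) or 3 to 4 months (young T, n = 6), so both groups share the depletion and the injected cell type and there was no recipient without transferred cells. The depletion experiment used older mice, 22 to 24 months of age, injected every 4 days up to sacrifice with the same CD8a antibody (n = 5) or with the isotype control rat IgG2b, clone LTF-2 (n = 5). The experiments share no group and their tables were normalized separately, so values of both are set side by side here and never tested against each other.

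Chemokines are small secreted proteins that attract cells through receptors coupled to G proteins; the transmembrane form of a few also holds cells in place. Homeostatic chemokines are made constantly by stromal, epithelial, endothelial or neural cells, whereas inflammatory chemokines are switched on by interferon and NF-kappaB signalling and recruit monocytes, neutrophils or T cells. In healthy brain most inflammatory chemokines are scarce, and Cxcl12 with its receptor Cxcr4 is known for guiding neural progenitors and blood cells.

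Libraries held 9957822 to 15055422 reads assigned to genes, recovered from the normalized values. All 10 markers of hippocampal excitatory neurons were expressed in both experiments, and the summed markers of T cells were 0.906 to 17.5 normalized counts per library, with Cd8a at 14 reads over the antibody libraries, 10 over the IgG2b libraries, 0 over the aged T libraries and 1 over the young T libraries. In whole tissue the CD8a target therefore lay too low to check the labels. The library of CD8a antibody replicate 5 stood apart: its score on the first principal component, which held 24.6% of the variance, was 57.3, against -28.2 to 6.90 in the other libraries of that experiment. Its summed astrocyte markers were 24127 normalized counts, against 38669 to 78309 in the others, and values that rest on it are given with and without it. Antibody replicate 2 lay at the other end of the first component, at -28.2, and had the highest score on the second, 34.6. It also held the highest astrocyte sum, 78309. The count of members with an unadjusted p under 0.05 is given below without replicate 2 as well.

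Most of the family was close to silent. A mean of at least 10 normalized counts over an experiment's libraries was reached by 11 members after transfer and by 12 in the depletion experiment, namely the same 11 and Cxcl10. Of the 15 receptors, Cxcr4 was among them. No read was found for 8 members in the transfer experiment and for 11 in the depletion experiment, and 5 members (Ccl1, Ccl26, Cxcl15, Cxcl17 and Cxcr2) had none in either. Over a whole group 0 reads allows up to 0.0427 (aged T), 0.0373 (young T), 0.0547 (CD8a antibody) and 0.0457 (IgG2b) CPM, an upper limit that covers counting error only. Per kilobase of exon, for the members past the filter, Cxcl14 was the most abundant, at 949 ± 125 normalized counts per kb in young T (SD, n = 6) and 1079 ± 108 in IgG2b (n = 5). Ccl27a (179 ± 57.0 per kb), Ccl21b (171 ± 38.9) and Cxcl12 (130 ± 16.7) followed in young T, and these 3 levels overlapped within their SD. The place of Ccl21b depends on its annotated length of 402 exon bases, where the similar gene Ccl21a has 870. Not divided by length, Ccl21b had 68.8 normalized counts in young T and Cxcl12 929. Ccl25 (24.2 ± 7.06 per kb), Cxcr4 (22.1 ± 5.63), Ccl28 (16.9 ± 3.57), Ccl6 (14.8 ± 7.44), Ccl9 (8.02 ± 4.99), Cxcl5 (7.21 ± 4.07) and Cxcl16 (7.10 ± 2.94) came next in young T, each within the larger SD of the pair from its neighbour. Among members under the filter, Ccl27b (21.5 ± 11.97 per kb), Ccl12 (7.67 ± 7.45) and Ccl17 (7.43 ± 6.65) had levels in this range in young T, from a few reads a library. The 4 leading genes were all homeostatic ligands.

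**Figure D1:**
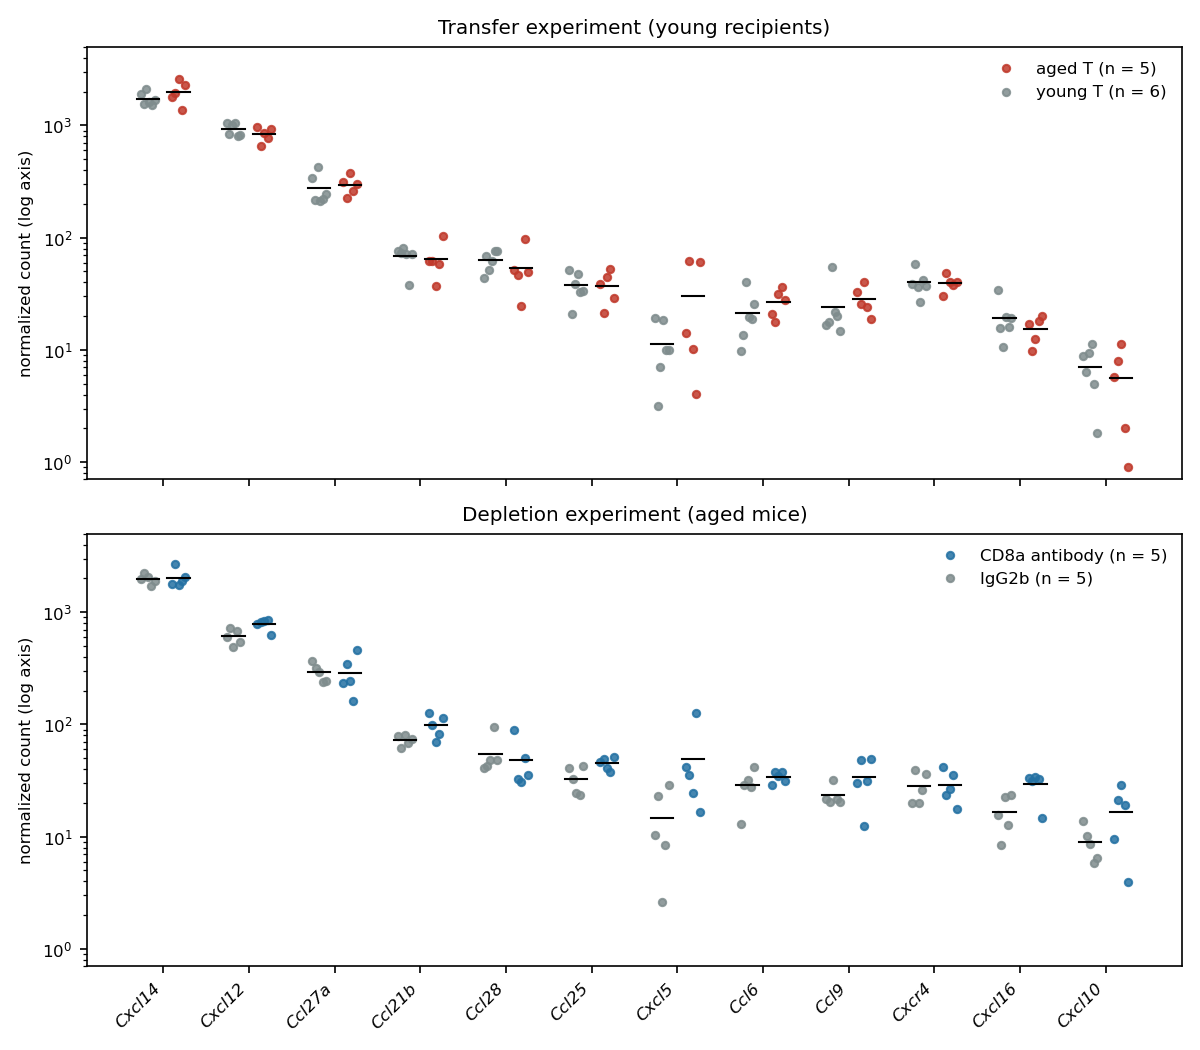
Normalized counts (log axis) of the 12 members that reached a mean of 10 in at least 1 experiment, one point per library with a black bar for the group mean, ordered by their mean in the depletion experiment. Cxcl14 is highest and Cxcl10 lowest, and the 2 groups overlap for every gene in both experiments.

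The transfer experiment compared the hippocampus of young mice that carried T cells from old or from young donors. No member differed between the groups after adjustment. Of the 11 members tested, 5 were higher and 6 lower with aged T cells, the median log2 difference was -0.00077, and none had an unadjusted p under 0.05 by limma. Over all 14162 genes tested 8.25% had an unadjusted p under 0.05, 0.0% had an adjusted p (Benjamini-Hochberg) under 0.05 and the median log2 difference was -0.00. Adjusted p of the members ran from 0.688 to 0.999 (limma). Without aged T replicate 4 there were 3 of 11 members with an unadjusted p under 0.05, where 12.8% of all genes had one, and without young T replicate 3 there was 1 of 11, where 11.2% of all genes did. Levels of the 2 groups overlapped for each of the 11, where 0.699% of all genes tested had groups that did not overlap.

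The depletion experiment compared the antibody with the isotype control in old mice. Here the members leaned towards the antibody: 10 of 12 were higher and 2 lower. Their median log2 difference was 0.39, where all 13939 genes tested had a median of -0.00. Among these 10, Cxcl10 passed the filter only through the antibody group, with a mean of 16.5 normalized counts against 9.01 with IgG2b. Its direction in the counts given here was therefore partly set by the filter. The ligands Cxcl12, Cxcl5, Cxcl16 and Ccl21b were higher with an unadjusted p under 0.05 (limma), 4 of 12 members where 4.31% of all genes tested were higher at that level and 8.47% passed it in either direction. None of the 12 passed after adjustment (adjusted p 0.416 to 0.987, limma), and 0.00717% of all genes did (1 gene). DESeq2 on the recovered reads called 92 of 18175 genes (0.506%) and the authors' deposited table also has 92 with an adjusted p under 0.05, none of them a member. The count of members with an unadjusted p under 0.05 was 2 of 12 without antibody replicate 1, without antibody replicate 2, without IgG2b replicate 2 and without IgG2b replicate 4, where 6.8%, 9.2%, 8.91% and 5.96% of all genes passed that level. Without antibody replicate 5 it was again 4, all higher, with Cxcl10 in and Ccl21b out, where 7.23% of all genes were higher at that level, 13.2% passed it in either direction and 0.179% passed after adjustment. With all libraries the groups overlapped for all 12 members, where 2.05% of genes tested had groups that did not overlap. Without antibody replicate 5, antibody libraries lay above all IgG2b libraries for Cxcl12 and Cxcl16, 2 of 12 where 2.22% of all genes were higher in this way.

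Many markers of cells and regions also differed in level between antibody and IgG2b libraries. Markers of microglia were higher in 10 of 10 (median log2 difference 0.28, 5 with unadjusted p under 0.05), with sums of 4974 to 6787 normalized counts in antibody libraries and 4444 to 5348 in IgG2b libraries. Markers of oligodendrocytes were higher in 8 of 8 (sums of 48047 to 92390 against 44758 to 59183), those of endothelium in 9 of 10 (2444 to 3737 against 2351 to 2563) and those of interneurons in 3 of 12 (11414 to 16137 against 17198 to 18404). Those of pericytes and smooth muscle were higher in 5 of 7 (median log2 difference 0.39, 3 with unadjusted p under 0.05, sums of 832 to 1531 against 781 to 992). Choroid plexus markers were higher in 10 of 10 (median 0.59, none at that level, 820 to 32192 against 2019 to 27409), and ependyma markers in 5 of 5 (median 0.70). Markers of the ventral hippocampus were lower in 6 of 6 (median log2 difference -0.69), with sums of 2124 to 3255 in antibody libraries and 3568 to 5008 in IgG2b libraries, so that these sums did not overlap. Markers of the dorsal hippocampus were higher in 3 of 3 (median 0.25), of excitatory neurons in 8 of 10 (0.28) and of astrocytes in 5 of 8 (0.09). Those of meningeal fibroblasts were higher in 8 of 9 (0.36), of border macrophages in 1 of 3 (-0.45) and of dendritic cells in 0 of 2 (-0.20). The part of all these markers in the members' differences was not tested beyond the fits given here. When a score of ventral over dorsal markers was added to the fit, 3 members in place of 4 had an unadjusted p under 0.05, 2 of them higher and 1 lower, where 6.71% of all genes were higher and 6.17% lower at that level, and none of the 4 named above was among them. As the ventral sums of the 2 groups did not overlap, group and score cannot be told apart in that fit. All values given below with the score in the fit carry this limit. In bulk tissue a change in the number of cells of a type and a change in RNA per cell cannot be told apart. No T cell marker reached the filter in either experiment.

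**Figure D2:**
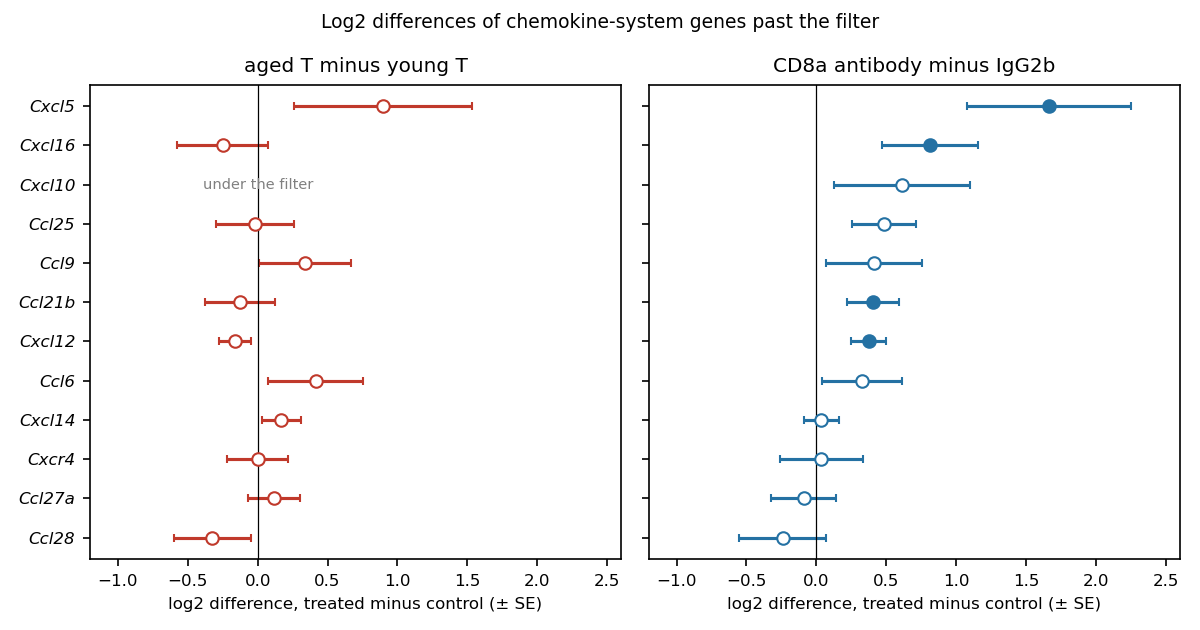
Log2 differences between groups (treated minus control, bars ± 1 SE, limma) in the transfer experiment (left) and the depletion experiment (right) for the 12 members; filled points have an unadjusted p under 0.05. All points on the left are open, and 4 on the right are filled, none of which passed after adjustment.

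Among the homeostatic ligands, Cxcl14, made in brain largely by neurons, was the highest (chromosome 13, positions 56288643 to 56296551, minus strand, GRCm38). It had 1780, 1927, 2568, 1363 and 2272 normalized counts in aged T replicates 1 to 5 and from 1510 to 2101 in young T (median 1657). In the depletion experiment it had 1781, 2686, 1753, 1916 and 2046 with the antibody and 1991, 2235, 2042, 1703 and 1885 with IgG2b. The ranges overlapped in both experiments. Its log2 difference was 0.17 (SE 0.14, adjusted p = 0.723, limma) between aged and young T and 0.03 (SE 0.13, adjusted p = 0.960, limma) between antibody and IgG2b. With the ventral over dorsal score in the fit the second value was 0.48, with an unadjusted p of 0.0250 by limma.

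Cxcl12 attracts lymphocytes and progenitors through Cxcr4 and is removed by the scavenger Ackr3 (chromosome 6, positions 117168535 to 117181367, plus strand). Antibody libraries had 785, 820, 843, 850 and 631 normalized counts and IgG2b libraries 604, 721, 488, 684 and 546. Antibody replicate 5 alone fell within the IgG2b range. The log2 difference was 0.37 (SE 0.13, unadjusted p = 0.0109, adjusted p = 0.416, limma), 0.45 without antibody replicate 5 (adjusted p = 0.119, limma) and 0.17 with the ventral over dorsal score in the fit (unadjusted p = 0.479, limma). After transfer the order was the other way: 969, 651, 855, 768 and 929 with aged T cells and 802 to 1051 with young T cells (median 927). These groups overlapped, with a log2 difference of -0.16 (SE 0.11, adjusted p = 0.693, limma). Markers of endothelium were higher in 9 of 10 with the antibody and 3 of 10 with aged T cells, those of pericytes and smooth muscle in 5 of 7 and 0 of 7. Markers of microglia, oligodendrocytes, choroid plexus and ependyma were mostly higher in both experiments. The part of these markers in the Cxcl12 values was not tested. Whether the Cxcl12 difference after depletion differs from that after transfer was not tested.

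Cxcl16 is a membrane-bound chemokine that binds Cxcr6, a receptor of T cells that stay in tissue (chromosome 11, positions 70453983 to 70459984, minus strand). Antibody libraries had 33.5, 31.2, 33.9, 32.4 and 14.7 normalized counts, and IgG2b libraries 15.5, 8.36, 22.6, 12.6 and 23.6. The first 4 antibody libraries lay above every IgG2b library, while replicate 5 lay among the controls. The log2 difference was 0.81 (SE 0.34, unadjusted p = 0.0316, adjusted p = 0.532, limma) and 1.03 without replicate 5 (adjusted p = 0.177, limma). Per 1000 summed counts of the 10 microglia markers, which were higher with the antibody as well, Cxcl16 had 4.94, 5.17, 6.01, 5.25 and 2.96 with the antibody and 3.08, 1.56, 5.08, 2.54 and 5.22 with IgG2b. On this scale the means over all libraries were 4.86 ± 1.14 with the antibody and 3.496 ± 1.61 with IgG2b (SD, n = 5 each). The groups overlapped. Without replicate 5 the antibody libraries ran from 4.94 to 6.01, in the upper part of the IgG2b range (1.56 to 5.22) and above it. The part of microglia in the Cxcl16 difference was not tested. Aged T libraries had 17.0, 9.80, 12.4, 18.3 and 19.9 and young T libraries 10.6 to 34.0 (median 17.5), which overlapped (log2 difference -0.25, SE 0.32, adjusted p = 0.830, limma). The exons of Cxcl16 share 552 of 2699 bases with Zmynd15 on the opposite strand, which was listed at means under 2 normalized counts in every group. Its receptor Cxcr6 had 6 reads in all transfer libraries and 13 in all depletion libraries.

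**Figure D3:**
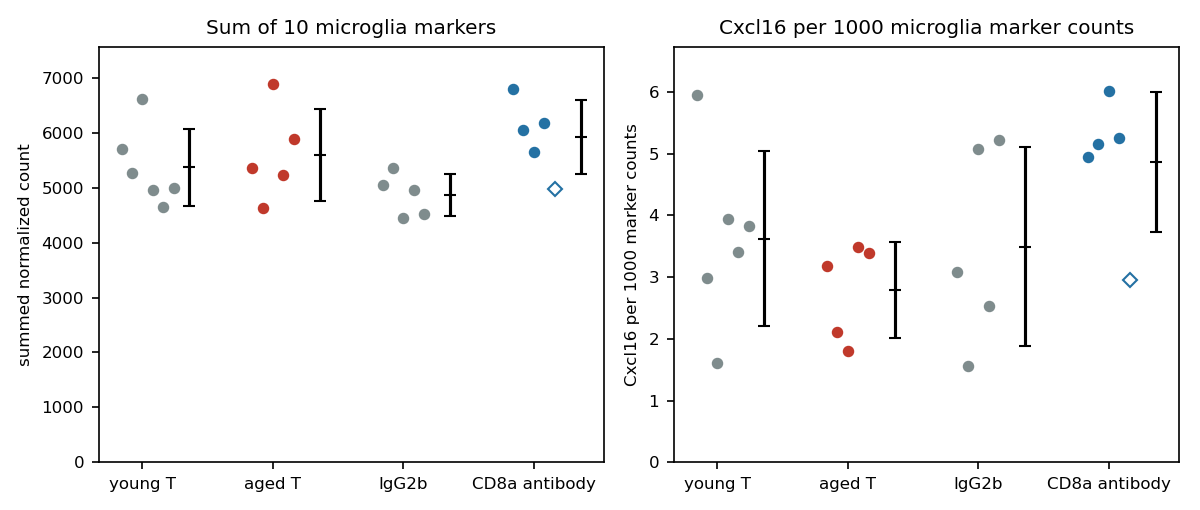
Summed normalized counts of 10 microglia markers (left) and Cxcl16 per 1000 of those counts (right) in each library, with mean ± SD of each group; the open diamond is CD8a antibody replicate 5. Without that library, Cxcl16 per 1000 marker counts runs from 4.94 to 6.01 with the antibody and from 1.56 to 5.22 with IgG2b, so the groups overlap.

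Ccl25, which draws thymocytes and gut lymphocytes through Ccr9, had 46.7, 49.0, 41.1, 37.99 and 51.0 normalized counts with the antibody and 40.6, 32.5, 24.3, 23.5 and 42.9 with IgG2b (chromosome 8, positions 4325210 to 4360020, plus strand). The groups overlapped, with a log2 difference of 0.48 (SE 0.23, unadjusted p = 0.0508, adjusted p = 0.592, limma), and 1.03 with the ventral over dorsal score in the fit. Ccl25 lay within one range after transfer, with 38.8, 21.4, 45.03, 52.7 and 29.0 in aged T and 21.0 to 51.5 in young T (median 36.3; log2 difference -0.02, SE 0.28, adjusted p = 0.989, limma). It shares 56 exon bases with Elavl1 on the other strand, and strand use in the counting was not given in the sources used here. Reads of its receptor Ccr9 numbered 9, 3, 8, 1 and 3 in aged T replicates and 4, 1, 2, 1, 4 and 6 in young T replicates, and 0, 3, 2, 2 and 0 with the antibody against 6, 6, 2, 4 and 3 with IgG2b.

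Ccl28, a mucosal ligand of Ccr10, had 52.0, 46.3, 24.8, 96.3 and 49.8 normalized counts in aged T and 43.7 to 76.6 in young T (median 65.1; chromosome 13, positions 119623819 to 119654359, plus strand). One aged T library was above and one below all young T libraries, with a log2 difference of -0.32 (SE 0.28, adjusted p = 0.732, limma). In the depletion experiment it had 89.8, 32.3, 30.8, 50.3 and 35.3 with the antibody and 40.6, 42.8, 47.8, 93.9 and 48.3 with IgG2b. One library of each group stood above the rest of its group (89.8 and 93.9), and the log2 difference was -0.24 (SE 0.31, adjusted p = 0.864, limma). With the ventral over dorsal score in the fit it was -1.52 (unadjusted p = 0.00497, limma). Ccr10 had 11, 4, 12, 9 and 5 reads in aged T, 11, 4, 7, 3, 2 and 3 in young T, 0, 8, 3, 3 and 2 with the antibody and 3, 1, 8, 1 and 7 with IgG2b.

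Ccl27a, known as a skin chemokine for Ccr10, lies in a cluster on chromosome 4 (positions 41769467 to 42773993) that also holds Ccl27b, Ccl19, Ccl21a and Ccl21b. Within it Ccl27a and Ccl27b are close copies, and so are Ccl21a and Ccl21b. A transcript of Ccl27b differs from one of Ccl27a at 3 of 425 bases and from another at 72, and one of Ccl21b differs from Ccl21a at 2 of 402, so the split of reads between the copies of each pair is uncertain. Ccl27a had 310, 224, 374, 262 and 299 normalized counts in aged T, 212 to 428 in young T (median 234), 234, 345, 244, 163 and 460 with the antibody and 370, 318, 294, 241 and 245 with IgG2b. The antibody libraries spread on both sides of the controls. Log2 differences were 0.11 (SE 0.18, adjusted p = 0.874, limma) for transfer and -0.09 (SE 0.23, adjusted p = 0.940, limma) for depletion, and the second was 0.71 with the ventral over dorsal score in the fit. Ccl27b had 7, 5, 11, 6 and 7 reads in aged T, 16, 7, 11, 4, 3 and 13 in young T, 6, 8, 3, 0 and 6 with the antibody and 8, 2, 5, 3 and 4 with IgG2b.

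The Ccl21 genes encode a ligand of Ccr7 that guides T cells and dendritic cells into lymph nodes. To show how little separates 2 of the copies, the 41 bases around each of their 2 differences are given from GENCODE transcripts, with the differing base in capitals:

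Ccl21b first difference: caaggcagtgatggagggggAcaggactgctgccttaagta
Ccl21a first difference: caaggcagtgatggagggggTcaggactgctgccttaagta
Ccl21b second difference: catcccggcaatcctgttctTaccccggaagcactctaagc
Ccl21a second difference: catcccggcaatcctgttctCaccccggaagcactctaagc

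Nearly all reads were given to Ccl21b (chromosome 4, positions 42255767 to 42256432, plus strand). It had 127, 99.2, 69.9, 81.6 and 115 normalized counts with the antibody and 79.4, 62.3, 79.9, 67.9 and 74.1 with IgG2b. Antibody replicates 1, 2, 4 and 5 lay above all IgG2b libraries, and the log2 difference was 0.41 (SE 0.18, unadjusted p = 0.0435, adjusted p = 0.572, limma), or 0.34 without replicate 5 (unadjusted p = 0.0883, limma). After transfer it had 61.5, 62.4, 37.2, 57.8 and 103 in aged T and 37.7 to 81.4 in young T (median 72.8), with a log2 difference of -0.13 (SE 0.25, adjusted p = 0.903, limma). Reads given to Ccl21c numbered 3, 0, 14, 7 and 0 in aged T and 0 in every young T library, yet 0 in every antibody library and 19 over the IgG2b libraries. Ccl21a had 3 reads in all transfer libraries and none in the depletion libraries. The 3 genes summed to 69.5 ± 19.5 normalized counts in aged T (SD, n = 5) and 69.3 ± 14.9 in young T (n = 6), and to 98.4 ± 23.3 with the antibody and 76.2 ± 6.60 with IgG2b (n = 5 each). In these sums antibody replicates 1, 2 and 5 lay above all IgG2b libraries, while replicate 4 (81.6) lay below IgG2b replicate 1 (84.6). The sums were not tested between groups. Ccl19, the other ligand of Ccr7, had 2, 2, 1, 0 and 1 reads in aged T and 2, 7, 4, 4, 2 and 3 in young T, and 18 in all depletion libraries. Ccr7 itself had 11 reads over the transfer libraries and 6 over the depletion libraries. Cxcl13, which attracts B cells, had 4 reads over the transfer libraries and 13 over the depletion libraries, all 13 of them with the antibody. These came from 3 of the 5 antibody libraries, of which the highest had 8.22 normalized counts.

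Of the 16 inflammatory CC ligands only Ccl6 and Ccl9, which act on myeloid cells through Ccr1, passed the filter; they lie beside Ccl5, Ccl3 and Ccl4 on chromosome 11 (cluster from 83525778 to 83664683). Ccl6 had 20.8, 17.8, 31.5, 36.5 and 28.1 normalized counts in aged T and 9.71 to 40.1 in young T (median 19.2). With the antibody it had 28.7, 37.9, 34.9, 37.99 and 31.4, and with IgG2b 12.95, 28.8, 32.1, 27.7 and 41.9. These ranges overlapped, with log2 differences of 0.42 (SE 0.34, adjusted p = 0.722, limma) for transfer and 0.33 (SE 0.29, adjusted p = 0.792, limma) for depletion, the latter 0.076 without IgG2b replicate 1. Ccl9 had 33.1, 25.8, 40.5, 24.3 and 19.0 in aged T and 14.6 to 54.3 in young T (median 18.9). It had 29.9, 47.9, 12.3, 31.3 and 49.0 with the antibody and 21.6, 20.4, 32.1, 21.8 and 20.4 with IgG2b. One antibody library lay below all controls and 2 above them. Its log2 differences were 0.34 (SE 0.33, adjusted p = 0.769, limma) for transfer and 0.41 (SE 0.34, adjusted p = 0.777, limma) for depletion. The second was 1.07 with the ventral over dorsal score in the fit (unadjusted p = 0.117, limma) and 0.25 to 0.73 when 1 library was left out. It was 0.25 without antibody replicate 5, 0.26 without antibody replicate 2 and 0.73 without antibody replicate 3.

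The monocyte chemoattractants were all under the filter. Ccl12 had 1, 0, 7, 1 and 4 reads in aged T, 7, 1, 5, 1, 10 and 0 in young T, 4, 13, 6, 10 and 4 with the antibody and 8, 8, 9, 4 and 0 with IgG2b. Ccl2 had 6 reads over all transfer libraries, and in the depletion experiment 5, 3, 2, 0 and 3 with the antibody and 7, 0, 1, 1 and 3 with IgG2b. Both groups overlapped for each gene. Ccl7 and Ccl8 had 15 and 5 reads over the transfer libraries and 8 and 11 over the depletion libraries. Ccl3, an attractant of monocytes and T cells, had 17 reads after transfer, 16 with aged T cells (in 4 of 5 libraries) and 1 with young T cells. Its unadjusted p was 0.00868 with an adjusted p of 0.662 by limma without a filter on low counts. In the depletion experiment Ccl3 had 0, 1, 3, 8 and 1 reads with the antibody and 7, 1, 0, 3 and 2 with IgG2b, so groups overlapped. Ccl5, which effector T cells release, had 8 reads over the transfer libraries, and 3, 4, 7, 0 and 4 with the antibody against 2, 1, 0, 7 and 0 with IgG2b. Ccl4 had 3 and 14 reads over the transfer and the depletion libraries. Of the ligands of Ccr4, Ccl17 had 2, 0, 3, 2 and 7 reads in aged T, 10, 1, 3, 0, 5 and 4 in young T, 1, 7, 2, 8 and 1 with the antibody and 0, 6, 5, 6 and 2 with IgG2b. Ccl22 had 12 reads over the transfer libraries, 2, 1, 3, 0 and 3 with the antibody and 1, 8, 1, 0 and 6 with IgG2b. Ccl24, an eosinophil attractant, had 3, 0, 4, 0 and 3 reads in aged T, 7, 0, 0, 0, 3 and 1 in young T and 6 over the depletion libraries. Ccl11 had 2 and 8 reads over the transfer and the depletion libraries, and Ccl20 had 1 and 0.

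**Figure D4:**
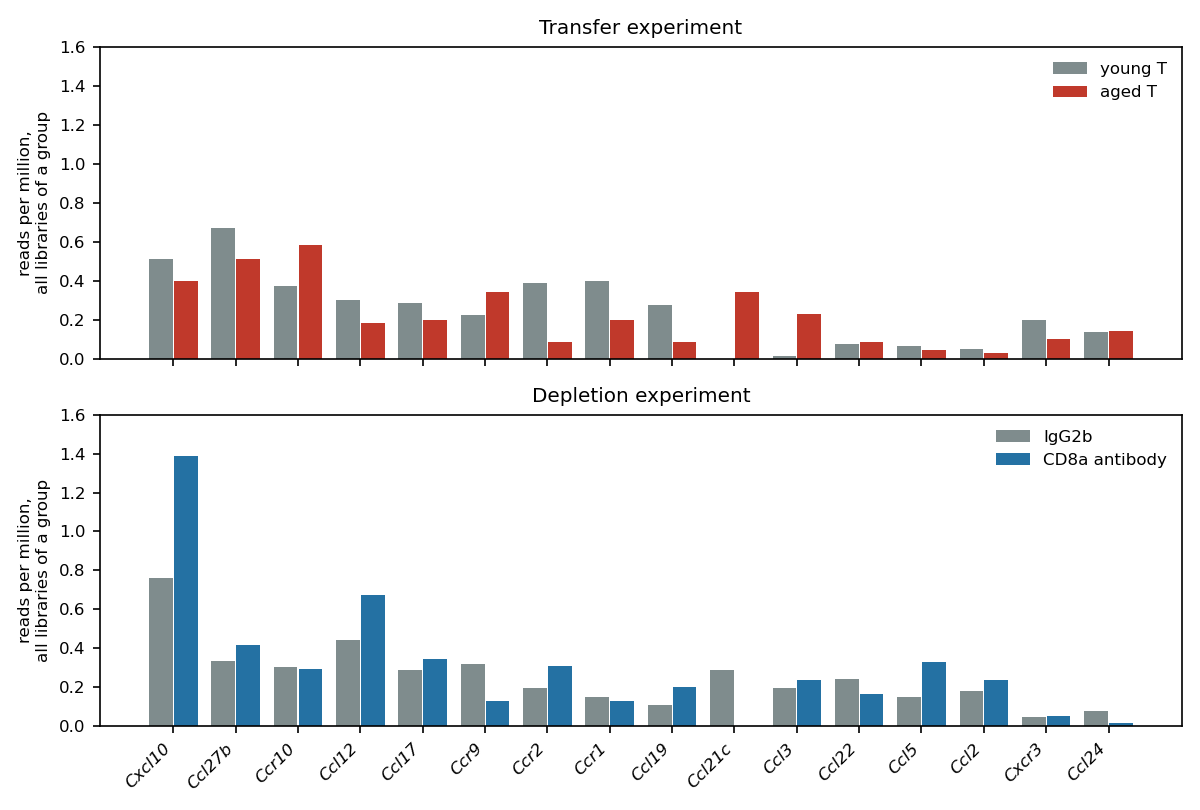
CPM summed over all libraries of a group for the 16 members that were under the filter and had at least 20 reads in at least 1 experiment (grey, control group; colour, treated group); Cxcl10 passed the filter in the depletion experiment. Ccl27b has the highest bar in the transfer experiment and Cxcl10 in the depletion experiment, and the bars for Ccl21c stand at 0 in opposite arms of the 2 experiments.

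Ligands of Cxcr2 recruit neutrophils, and 4 of the 5 were almost absent: Cxcl1 had 16 reads over the transfer and 15 over the depletion libraries, and Cxcl2, Cxcl3 and Cxcl15 at most 1 in either. Cxcl5 (chromosome 5, positions 90759360 to 90761624, plus strand) was the exception. Antibody libraries had 41.9, 35.7, 24.7, 125 and 16.7 normalized counts and IgG2b libraries 10.4, 23.2, 2.61, 8.38 and 29.0. Antibody replicates 1, 2 and 4 were above every control, with replicate 4 far above the rest. The log2 difference was 1.67 (SE 0.59, unadjusted p = 0.0129, adjusted p = 0.434, limma), 1.95 without replicate 5 (adjusted p = 0.170, limma) and between 1.22 and 1.99 over all left-out libraries. In the transfer experiment 2 aged T libraries were high: the values were 14.2, 62.4, 10.1, 4.06 and 60.7 in aged T and 3.16 to 19.4 in young T (median 9.98). The log2 difference was 0.90 (SE 0.64, adjusted p = 0.688, limma), between 0.48 and 1.40 when 1 library was left out. In the authors' deposited table its unadjusted p for transfer was 0.022. Both experiments thus had Cxcl5 higher in the mean of the treated group, with the groups overlapping. Markers of ependyma, the lining of the ventricles, were also higher in both: in 5 of 5 tested with the antibody (median log2 difference 0.70, 2 with unadjusted p under 0.05, sums of 149 to 511 normalized counts against 126 to 361) and in 6 of 6 with aged T cells (median 0.67, 3 at that level, 237 to 695 against 182 to 368). The libraries with the highest Cxcl5, antibody replicate 4 and aged T replicates 2 and 5, had the highest ependyma sums of their groups (511, 675 and 695), and the part of these markers in the Cxcl5 values was not tested.

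Cxcl9, Cxcl10 and Cxcl11 are induced by interferon, attract T cells that carry Cxcr3, and lie together on chromosome 5 (positions 92321347 to 92365485). Only Cxcl10 reached the filter, in the depletion experiment, and its promoter is shown because it carries the motif bound by interferon-activated factors. The 250 bases before its start come from RefSeq on GRCm38.p6, chr5:92348890-92349139, minus strand, with 1 ISRE match (TTTC, any 2 bases, TTTC, on either strand) and 2 kappaB matches (GGG, any 3 bases, TTCC, on either strand) in capitals:

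Cxcl10 promoter: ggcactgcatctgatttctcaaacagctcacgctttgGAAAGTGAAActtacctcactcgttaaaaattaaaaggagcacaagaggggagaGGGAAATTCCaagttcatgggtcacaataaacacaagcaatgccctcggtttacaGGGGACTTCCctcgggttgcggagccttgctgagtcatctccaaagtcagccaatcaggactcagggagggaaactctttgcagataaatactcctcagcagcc

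A match to the ISRE letters stood in 2.98% of 32851 RefSeq promoters of this length. The 37 members with a promoter among them had 44 promoters, 3 of which held the match (Ccl19, Cxcl10 and Cxcl14). A match to the kappaB letters stood in 4.65% of promoters and in 9 of the 44 member promoters. These 9 belong to Ccl1, Ccl20, Ccl9, Ccr3, Ccr6, Cxcl1, Cxcl10, Cxcl2 and Cxcl3. Cxcl10 had 9.58, 21.2, 28.8, 19.0 and 3.92 normalized counts with the antibody and 13.8, 10.2, 8.68, 5.87 and 6.44 with IgG2b. Antibody replicates 2, 3 and 4 were above every control and replicate 5 was below them all. The log2 difference was 0.61 (SE 0.48, unadjusted p = 0.225, adjusted p = 0.762, limma) and, without replicate 5, 1.01 (unadjusted p = 0.0260, adjusted p = 0.307, limma). It was 0.95 with the ventral over dorsal score in the fit and 0.36 without antibody replicate 3. After transfer Cxcl10 had 6, 9, 10, 2 and 1 reads in aged T and 9, 6, 8, 11, 5 and 2 in young T, which overlapped. Cxcl9 had 9 and 13 reads and Cxcl11 1 and 2 over the transfer and the depletion libraries. Cxcr3 had 5, 0, 0, 1 and 1 reads in aged T, 6, 2, 0, 0, 3 and 5 in young T and 6 over the depletion libraries.

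For comparison, the promoter of Cxcl14 also holds an ISRE match, together with a match to the GAS letters (TTC, any 3 bases, GAA, present in 7.02% of promoters), while that of Cxcl12 holds none of the 3 motifs in this window. They lie at chr13:56296552-56296801 on the minus strand and chr6:117168285-117168534 on the plus strand, with the matches in capitals:

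Cxcl14 promoter: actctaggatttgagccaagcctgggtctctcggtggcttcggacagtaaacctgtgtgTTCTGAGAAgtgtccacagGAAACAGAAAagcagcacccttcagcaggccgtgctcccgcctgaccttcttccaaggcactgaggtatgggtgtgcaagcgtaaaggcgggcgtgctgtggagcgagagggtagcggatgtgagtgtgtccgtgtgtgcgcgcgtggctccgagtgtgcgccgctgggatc
Cxcl12 promoter: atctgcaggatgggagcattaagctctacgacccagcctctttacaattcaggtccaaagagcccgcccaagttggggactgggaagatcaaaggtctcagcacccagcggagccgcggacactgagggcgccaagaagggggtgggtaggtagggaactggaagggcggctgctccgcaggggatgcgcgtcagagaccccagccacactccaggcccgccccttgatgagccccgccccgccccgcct

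Between antibody and IgG2b the log2 difference was 0.61 for Cxcl10 (unadjusted p = 0.225, limma) and 0.37 for Cxcl12 (unadjusted p = 0.0109, limma). It was 0.03 for Cxcl14 (unadjusted p = 0.785, limma). A match to these letters does not show a working site, and the part of the motifs in these differences was not tested.

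Cxcr4, the receptor for Cxcl12 (chromosome 1, positions 128588199 to 128592293, minus strand), had 30.3, 48.1, 40.5, 37.5 and 39.9 normalized counts in aged T and 26.7 to 57.8 in young T (median 38.1). It had 41.9, 23.4, 26.7, 35.7 and 17.6 with the antibody and 19.8, 39.0, 19.97, 26.0 and 36.5 with IgG2b. Both pairs of groups overlapped, with log2 differences of -0.00 (SE 0.22, adjusted p = 0.999, limma) and 0.03 (SE 0.30, adjusted p = 0.987, limma).

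Ccr2, the receptor of inflammatory monocytes, had 0, 5, 0, 1 and 0 reads in aged T and 14, 0, 2, 4, 4 and 7 in young T, with the highest count in young T replicate 1. That library also had the most reads of Ccr1, Ccl17 and Ccl24 after transfer. Its sums were the largest of that experiment for markers of meningeal fibroblasts (6947 normalized counts), pericytes and smooth muscle (2795) and endothelium (5610). The same held for border macrophages (281), T cells (17.5) and neutrophils (31.1), but not for microglia, monocytes, B cells or dendritic cells. The part of these markers in the Ccr2 count was not tested. In the depletion experiment Ccr2 had 2, 9, 0, 3 and 3 reads with the antibody and 6, 1, 3, 3 and 0 with IgG2b. Ccr1 had 0, 2, 8, 0 and 4 reads in aged T and 13, 1, 2, 10, 4 and 2 in young T, and 17 over the depletion libraries. The remaining receptors were at or near 0: Ccr4, Cxcr5, Ccr3, Ccr6, Ccr8 and Cxcr1 had 5, 3, 0, 1, 1 and 1 reads over the transfer libraries and 0, 3, 1, 0, 0 and 0 over the depletion libraries. Among the members under the filter that had any read, 4 of 33 after transfer (Ccl3, Ccl19, Ccl21c and Ccr2) and 3 of 29 after depletion (Ccl21c, Ccr9 and Cxcl13) had an unadjusted p under 0.05 by limma without a filter, where 7.49% (transfer) and 7.78% (depletion) of all genes had one. None passed after adjustment.

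**Figure D5:**
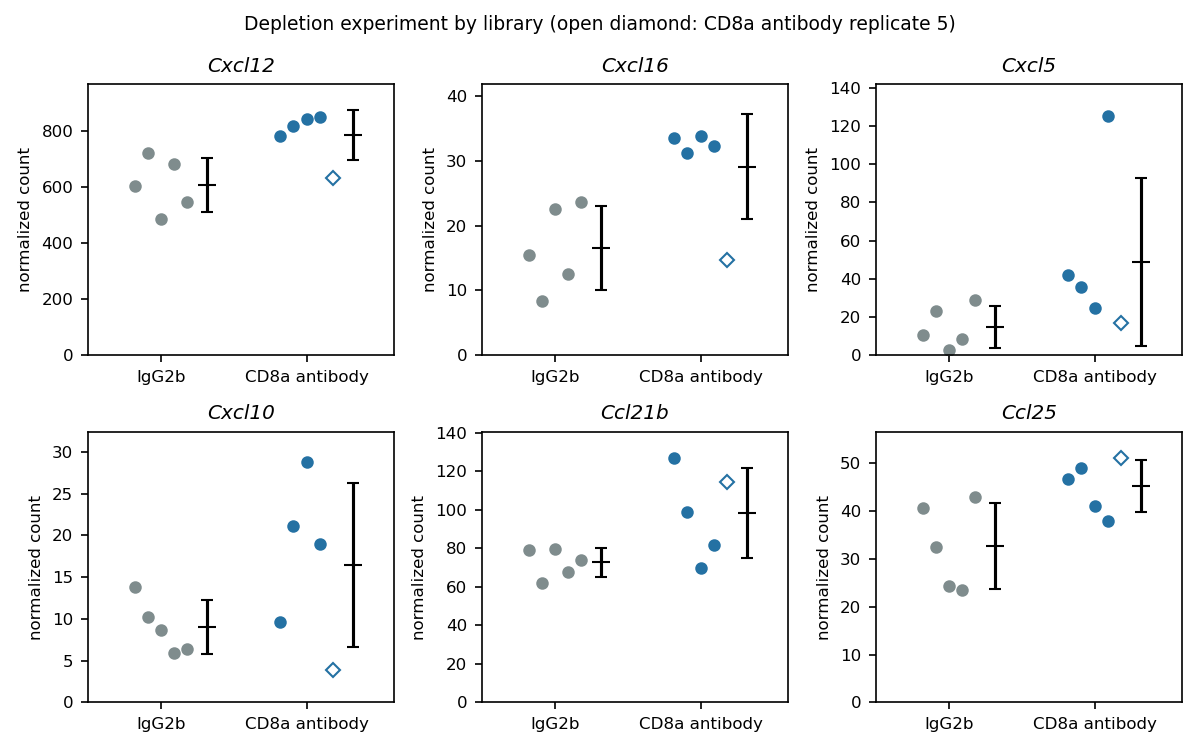
Normalized counts per library in the depletion experiment for 6 members, with mean ± SD of each group beside the points; the open diamond is CD8a antibody replicate 5. For Cxcl12 and Cxcl16 the other 4 antibody libraries lie above all 5 IgG2b libraries, and for Cxcl5 1 antibody library reaches 125.

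The rest of the chemokine system was read from 4 further gene lists. Of all genes tested 49.6% were higher with the antibody and 49.0% with aged T cells, and the shares with an unadjusted p under 0.05 were 8.47% and 8.25%. Among other ligands and receptors, 8 of 11 tested were higher with the antibody (median log2 difference 0.17), 2 of them with an unadjusted p under 0.05 by limma: Rarres2, which encodes chemerin (57.8 ± 15.0 against 34.9 ± 8.27 normalized counts, SD, n = 5 each, log2 difference 0.70), and Cd74, a receptor for Mif and the invariant chain of MHC class II (64.3 ± 41.1 against 26.4 ± 3.44, 1.01). Rarres2 is also on the list of 6 ependyma markers, which were higher with the antibody in 5 of 5 tested. The part of ependyma in the Rarres2 value was not tested. After transfer 6 of 13 other ligands and receptors were higher, and Mif alone had an unadjusted p under 0.05 by limma (924 ± 108 against 782 ± 49.7, 0.24). The neuronal ligand Cx3cl1 had 5121 ± 730 normalized counts in aged T and 5616 ± 1008 in young T, and 4385 ± 1050 with the antibody and 4670 ± 386 with IgG2b. Its microglial receptor Cx3cr1 had 884 ± 95.3 and 853 ± 142 after transfer, and 990 ± 236 and 799 ± 111 after depletion. The scavenger Ackr3 had 184 ± 57.3 and 150 ± 19.1 after transfer and 151 ± 22.5 and 134 ± 14.1 after depletion, and the venular scavenger Ackr1 135 ± 34.4 and 166 ± 15.8, then 140 ± 40.4 and 148 ± 32.9. None of these 4 had an unadjusted p under 0.05.

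Signalling genes downstream of the receptors were higher in 26 of 34 with the antibody (median log2 difference 0.10). Dock2, which drives leukocyte migration (90.3 ± 23.2 against 54.2 ± 4.54 normalized counts, log2 difference 0.68), Rgs10, a regulator of G protein signalling abundant in microglia (279 ± 39.0 against 215 ± 35.0, 0.37) and the adhesion adaptor Pxn (310 ± 67.6 against 243 ± 15.6, 0.32) were higher with an unadjusted p under 0.05 by limma, and the G protein subunit Gnai1 was lower (3351 ± 376 against 4030 ± 382, -0.27). After transfer 19 of 34 were higher, with Rgs2 (789 ± 168 against 617 ± 59.6, 0.34) and Rgs10 (262 ± 37.3 against 212 ± 24.8, 0.30) at that level. Transcription factors and receptors upstream of the inflammatory chemokines were higher in 21 of 23 with the antibody (median 0.24) and in 7 of 23 with aged T cells (median -0.09). With the antibody 4 were higher and 1 lower with an unadjusted p under 0.05 by limma: Irf9, the interferon factor of the ISRE complex (119 ± 23.1 against 75.0 ± 7.84, 0.65, unadjusted p = 0.00158, adjusted p = 0.282), the interferon receptor subunit Ifnar2 (271 ± 17.7 against 210 ± 31.3, 0.38), the NF-kappaB subunit Rela (274 ± 31.3 against 220 ± 24.8, 0.31) and, named after its values were seen, the interferon factor Irf7 (32.9 ± 26.7 against 14.7 ± 7.72, 0.996), while the NF-kappaB inhibitor Nfkbia was lower (221 ± 23.2 against 280 ± 45.9, -0.33). With aged T cells 2 of the 23 passed that level, of which Relb was higher (114 ± 17.0 against 82.0 ± 7.73, 0.46) and Nfkbiz lower (67.6 ± 11.9 against 93.9 ± 20.3, -0.45). Of the matrix and processing genes 7 of 14 were higher with the antibody and 4 of 15 with aged T cells, where the heparan sulfate proteoglycan Hspg2 was lower (87.3 ± 20.1 against 138.5 ± 27.0, -0.68), the only one of them at that level. Markers of pericytes and smooth muscle were lower with aged T cells in 7 of 7 (median log2 difference -0.37, 4 with unadjusted p under 0.05, sums of 1085 to 1993 normalized counts against 1404 to 2795) and those of meningeal fibroblasts in 10 of 10 (median -0.77, 3 at that level, 1350 to 4287 against 1434 to 6947). Their part in the Hspg2 value was not tested. All these p are unadjusted, and no gene of the 4 lists passed after adjustment by limma.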

How the data were processed

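Poly(A) RNA of hippocampus was sequenced in 21 libraries; STAR, RSEM, DESeq2 and mm10 are named in the submitters' processing notes, without versions or roles. The authors deposited 1 table of normalized counts (signal) for each experiment, with log2 fold changes, p-values and a test statistic (a score) of their own comparison. Each value is a whole multiple of the smallest non-zero value of its column, so reads were recovered by division (100% whole within 1e-06). Genes with a mean of at least 10 normalized counts were tested on log2(value + 1) with limma 3.58.1 (trend, R 4.3.3), each experiment alone, p-values adjusted (Benjamini-Hochberg) over all genes tested; the code was tested on simulated data. Folds are on that scale, which understates low genes. Alternatives used edgeR 4.0.16 and DESeq2 1.42.0 on the reads, other filters, pseudocounts, covariates and left-out libraries. As nothing states that libraries of a group came from separate animals, p-values measure only the spread between these libraries; no 2 libraries of a group agreed within sampling noise. 1 gene that matches the symbol rule and 1 gene of the lists are not reported here, and counts leave them out. All members past the filter are described, those under it with at least 20 reads by library, others by total. Of the 4 pathway lists, up to 4 genes with the smallest p under 0.05 are named, and Cx3cl1, Cx3cr1, Ackr1 and Ackr3 always. Members and lists were chosen with earlier results of these data known. Gene positions come from GENCODE M21 (GRCm38).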

Additional observations from a re-analysis of the deposited data

Results flagged for a closer look

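Among the 46 sets of values tested (member, group and experiment), 6 held a library far from the others, where chance gives about 2.3. In young T replicate 3, Ccl9 was 54.3 normalized counts, with the other 5 libraries at 14.6 to 21.6. The summed microglia markers of this library were the highest of young T, at 6619. Per 1000 of those marker counts Ccl9 was 8.20 in this library and 2.89 to 4.36 in the others. In young T replicate 5, Ccl21b was low at 37.7 (others 72.0 to 81.4). In CD8a antibody replicate 5, Cxcl12 was low at 631 (others 785 to 850) and Cxcl16 at 14.7 (others 31.2 to 33.9); its summed microglia markers were the lowest of that group, at 4974. In IgG2b replicate 3, Ccl9 was high at 32.1 (others 20.4 to 21.8), and in IgG2b replicate 4, Ccl28 was high at 93.9 (others 40.6 to 48.3). The summed microglia markers of IgG2b replicate 3 were the lowest of that group, at 4444. The part of microglia in these values was not tested.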

How the results depend on the processing

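The count of members that passed after adjustment was 0 in both experiments under every alternative run. In the depletion experiment DESeq2 gave no adjusted p to weak members such as Ccl21c and Cxcl13, so it could not call them. Members with an unadjusted p under 0.05 numbered 0 of 11 after transfer by limma, but 1 of 11 by edgeR, 2 of 44 by DESeq2, 4 of 44 without a filter and 4 of 27 with a mean of at least 1, where 8.69%, 8.07%, 7.49% and 7.88% of all genes passed that level. Leaving out 1 library gave 0 to 3 of 11 (4.23% to 12.8% of all genes). After depletion they numbered 4 of 12, with 6 of 41 by DESeq2 (8.19% of all genes) and 6 of 41 without a filter (7.78%), 5 of 31 with a mean of at least 1 (8.25%), 3 to 5 of 12 under the other settings (8.47% to 12.9%) and 2 to 5 of 12 when 1 library was left out (5.96% to 13.2%); the cause was not tested. Of 23 log2 differences of single members, 17 kept their sign in every alternative, and 449 of 471 alternative values did. After transfer the sign turned for Ccl25 with the choroid plexus score (0.026; -0.17 to 0.16 over left-out libraries), for Cxcr4 with TMM scaling (0.00036) and the ventral over dorsal score (0.00053; -0.11 to 0.11), and over left-out libraries for Ccl21b (-0.31 to 0.049). After depletion it turned with the ventral over dorsal score for Ccl27a (0.71; -0.28 to 0.091 over left-out libraries) and Cxcr4 (-0.63; -0.11 to 0.19), and over left-out libraries for Cxcl14 (-0.070 to 0.084). No paired analysis was possible because no replicate number is shared between the groups in the labels. Precision is limited by 5 or 6 libraries a group and, for members under the filter, by a few reads per library.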
